A study of Mus musculus with 6 samples.

Results

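The matrix metalloproteinases and their tissue inhibitors, the TIMPs, were followed in the skull roof of mice with a collagen X transgene. Members were taken by name: Mmp2, Mmp3, Mmp9, Mmp11, Mmp13, Mmp14, Mmp16, Timp1, Timp2 and Timp3. Every probe set whose annotation gave exactly 1 of these symbols was used, which gave 10 of 18194 named genes and 25 of the 45101 probe sets on the array, 14 for the 7 proteases and 11 for the 3 inhibitors. The tested animals were 13del-tg mice, which express a Col10a1-13del transgene and are labelled as having bone overgrowth. Their controls were wild-type littermates. Parietal bones of both were taken at 10 days of age, cryosectioned and extracted, and each RNA was put on 1 Affymetrix mouse array. The sources used here do not name the promoter that drives the transgene.

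The labels give 3 biological replicates per genotype, but the columns of 13del-tg 1 and control 1 held the same value for all 45101 probe sets. That array, called the shared array, is shown apart and enters no group, so 13del-tg 2 and 3 were compared with controls 2 and 3. Col10a1, the transgene's gene, had signals of 15689 and 11584 in 13del-tg against 149.8 and 158.2 in the controls, and 152.2 on the shared array. On this gene the shared array thus lay between the 2 controls and far below 13del-tg. The labelled tissue was checked against osteoblast markers. Col1a1, the main collagen gene of bone, was at 46123 and 48236 in 13del-tg and 42618 and 46275 in the controls. All 7 listed osteoblast markers with a probe set passed the signal filter used below, which is not a detection call. The summed signal of 6 skeletal muscle markers was 155780 and 122282 in 13del-tg against 114353 and 19930 in the controls. For 7 pineal and photoreceptor markers it was 396 and 455 in 13del-tg against 4271 and 8945 in the controls, and for 3 erythroid markers 2828 and 3604 against 10155 and 12397. On the shared array these sums were 135070 for muscle, 576 for pineal and photoreceptor and 6573 for erythroid markers. By pineal and photoreceptor markers that array was thus nearer 13del-tg, unlike by Col10a1, and by erythroid markers it lay between the genotypes. The part of these cells in the values below was not tested. In such bulk samples, fewer cells of a type and less RNA per cell cannot be told apart.

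Matrix metalloproteinases are zinc-dependent enzymes that cut collagens and other matrix proteins outside the cell or at its surface. They are made as inactive precursors whose propeptide has to be removed, and the TIMPs bind the active enzymes and block them. In bone, the family takes part in the removal of cartilage and collagen during growth, in the path of osteoclasts through the matrix and in the remodelling of matrix around osteocytes.

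Of the family, the membrane collagenase gene Mmp14 and the gelatinase gene Mmp9 had lower signals, and the inhibitor gene Timp1 a higher one, on both 13del-tg arrays than on both controls. Of the dimmer genes, Mmp3 was also higher and Mmp11 lower on both, with unadjusted p = 0.182 and 0.535 by limma. The most abundant probe sets of Mmp2 and Timp2 gave nearly the same signal in both genotypes. With genotype as the only term of the fit, no member passed the test over all probe sets. Differences are 13del-tg minus control on the log2(signal + 16) scale, fitted with limma across 27022 probe sets bright enough to keep, with Benjamini-Hochberg adjustment over all of them. All 25 probe sets of the family were kept, and 0 of 25 had an adjusted p under 0.05, against 0.037% of all probe sets tested. The lowest adjusted p among them was 0.88. At an unadjusted p under 0.05, 1 was higher in 13del-tg and 5 were lower, where the background was 1.42% higher and 3.72% lower. The 5 were the 3 probe sets of Mmp14 and the 2 of Mmp9, so they stand for 2 genes. By the brightest probe set of each of the 10 genes, 1 was higher and 2 were lower. The 6 in all became 5 with quantile normalization, 1 with arrays centred on their medians and 0 without limma's intensity trend.

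For 8 of the 25 probe sets the 13del-tg signals were both under the 2 control signals (32.0%, against 23% of all probe sets tested), and for 3 they were both over them (12%, against 12.6%). Of the 25 differences, 18 were negative, or 72.0%, against 58.6% of all probe sets, and their median was -0.14, against -0.07 for all. These counts lean on the scaling: 13 were negative with arrays centred on their medians and 21 with quantile normalization. They also lean on control 3, without which 11 were negative. Counted by the brightest probe set of each gene, 5 of the 10 genes were negative and 5 positive. With 2 arrays against 2, an exact two-sided permutation test of a single probe set cannot give a p below 0.333.

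**Figure D1:**
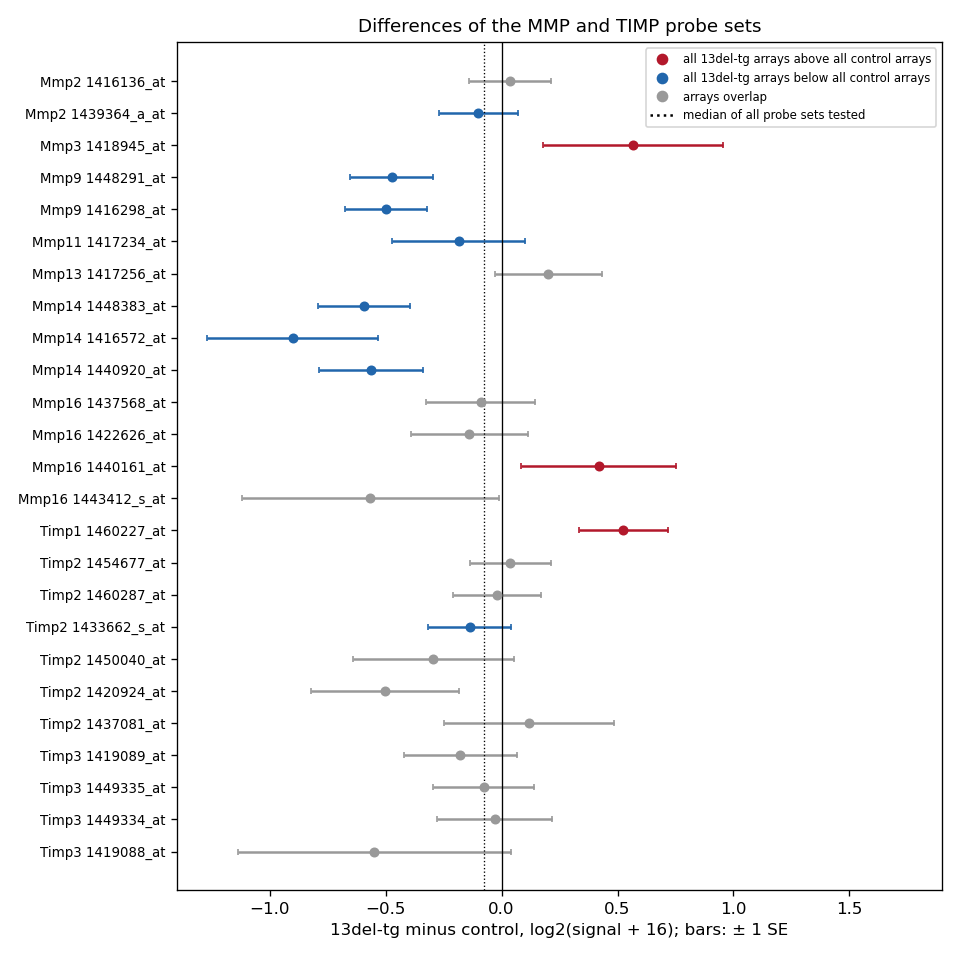
Difference of each MMP and TIMP probe set, 13del-tg minus control, in log2(signal + 16), with bars of 1 SE (2 arrays per genotype). The 3 Mmp14 and 2 Mmp9 probe sets lie left of 0 between -0.90 and -0.47, Timp1 and Mmp3 lie right of 0 at 0.52 and 0.57, and most others straddle 0.

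Mmp14 encodes a membrane-anchored collagenase that works at the cell surface and, together with the Timp2 product, turns the Mmp2 precursor into active enzyme. Its brightest probe set, 1448383_at, had signals of 10039 and 8111 in 13del-tg 2 and 3, against 12455 and 14895 in controls 2 and 3. The groups did not overlap, and the shared array, at 8500, lay between the 13del-tg arrays. The means were 9075 ± 1364 in 13del-tg and 13675 ± 1725 in the controls (SD, n = 2 each). By limma the log2 difference was -0.59 (SE 0.20, 95% interval -1.05 to -0.13, unadjusted p = 0.0177, adjusted p = 0.88), which put 13del-tg at 66.3% of the controls.

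The other 2 probe sets of Mmp14 lay on the same side. Probe set 1440920_at gave 2378 and 1711 in 13del-tg against 2887 and 3092 in the controls, a log2 difference of -0.56 (SE 0.23). Probe set 1416572_at gave 3761 and 1617 in 13del-tg against 4019 and 5319 in the controls, a difference of -0.90 (SE 0.37). Here 13del-tg 3 alone was far below, and without it the difference was -0.30. All 3 probe sets were read from the same RNA samples, so they are not further replicates. Leaving out 1 array at a time, the difference of 1448383_at ran from -0.75 to -0.44 and that of 1440920_at from -0.80 without 13del-tg 2 to -0.33 without 13del-tg 3. When the shared array was put among the controls, 1448383_at had -0.37 (SE 0.27).

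Mmp16 encodes another membrane-anchored protease of this group. Its brightest probe set, 1437568_at, gave 1895 and 2279 in 13del-tg against 1882 and 2605 in the controls, so the groups overlapped, with a log2 difference of -0.09 (SE 0.24, 95% interval -0.63 to 0.45). Probe set 1422626_at gave 873.8 and 654.5 in 13del-tg against 794.3 and 876.3 in the controls, which also overlapped. A dim probe set, 1440161_at, had 218.7 and 273.4 in 13del-tg, above 207.3 and 154.3 in the controls, a log2 difference of 0.42 (SE 0.33, unadjusted p = 0.246 by limma). The dimmest, 1443412_s_at, gave 99.9 and 29.1 in 13del-tg against 68.7 and 119.2 in the controls, with a log2 difference of -0.57 (SE 0.55). The 4 probe sets of Mmp16 thus differed in sign. Only 1440161_at did not overlap between the genotypes, and the 95% intervals of all 4 included 0.

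Mmp2 encodes the gelatinase that the Mmp14 product activates, and it is made broadly by connective tissue cells. Probe set 1416136_at gave 17126 and 18247 in 13del-tg against 16211 and 18318 in the controls. Means were 17687 ± 793 in 13del-tg and 17264 ± 1490 in the controls (SD, n = 2 each), and the log2 difference of 0.04 (SE 0.18) had a 95% interval from -0.37 to 0.45. The second probe set, 1439364_a_at, gave 16245 and 16220 in 13del-tg, both below 17065 and 17747 in the controls, with a log2 difference of -0.10 (SE 0.17). Its 95% interval was -0.49 to 0.29, so neither reading differed beyond its error, and both intervals leave room for a change of moderate size either way.

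Mmp9 encodes the gelatinase of osteoclasts and neutrophils. Its brighter probe set, 1448291_at, had signals of 11659 and 12019 in 13del-tg 2 and 3, against 15387 and 17577 in controls 2 and 3, and 10596 on the shared array. The 13del-tg arrays were alike and under both controls, and the shared array lay below all 4. The means were 11839 ± 254 in 13del-tg and 16482 ± 1548 in the controls (SD, n = 2 each). By limma the difference was -0.47 on the log2 scale (SE 0.18, 95% interval -0.88 to -0.06, unadjusted p = 0.0288, adjusted p = 0.88), or 72.0% of the controls. Probe set 1416298_at, annotated to the same gene and read from the same RNA samples, gave 10448 and 10678 in 13del-tg against 13983 and 15929 in the controls. Its log2 difference was -0.50 (SE 0.18). Without 1 array the first difference ran from -0.57 to -0.38, and counting the shared array as a control brought it to -0.26.

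Markers of the cells that make Mmp9 are set beside it. The 8 osteoclast markers were all negative (median difference -0.36), and their summed signal was 52538 and 66825 in 13del-tg against 60927 and 71032 in the controls, so the sums overlapped. Most of that sum came from Ctsk and Acp5. Of the 8, 4 were lower on both 13del-tg arrays than on both controls (50.0%, against 23% of all probe sets tested). The 9 neutrophil markers were all negative too, with a median of -0.87, where 58.6% of all probe sets tested were negative. They summed to 18793 and 59033 in 13del-tg against 43752 and 63399 in the controls. Their median against the control mean was -1.59 on 13del-tg 2 but 0.15 on 13del-tg 3. Of the 9, 1 was lower on both 13del-tg arrays than on both controls (11.1%, against 23%). All 8 osteoclast and all 9 neutrophil markers had a probe set that passed the signal filter, which is not a detection call. The osteoclast protease gene Ctsk gave 27311 and 32290 in 13del-tg against 28936 and 30767 in the controls, a log2 difference of -0.01 (SE 0.18). Atp6v0d2, a proton pump subunit gene of osteoclasts that was picked after its values were seen, gave 2753 and 3969 in 13del-tg, below 5002 and 5240 in the controls, a log2 difference of -0.63 (SE 0.22, unadjusted p = 0.0234, adjusted p = 0.88 by limma). The part of these cells in the Mmp9 values was not tested.

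**Figure D2:**
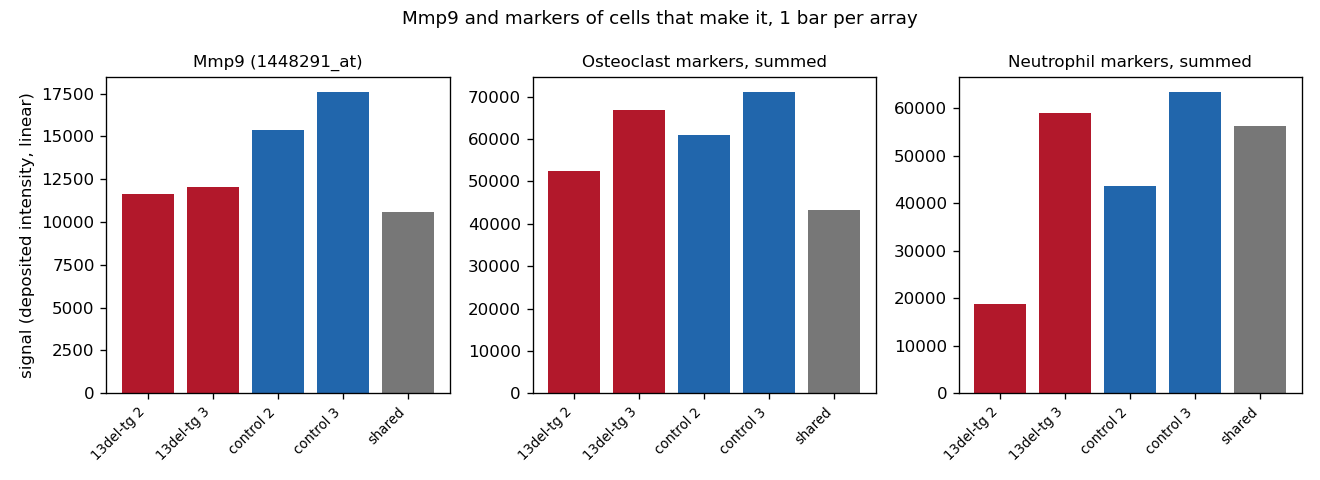
Deposited signal of Mmp9 (probe set 1448291_at) and summed signals of 8 osteoclast and 9 neutrophil markers, with 1 bar per array. Mmp9 is at 11659 and 12019 in 13del-tg and 15387 and 17577 in the controls, and both sums overlap between the genotypes. The neutrophil sum of 13del-tg 2 is lowest at 18793.

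Mmp13 encodes the main collagenase of rodents, made by osteoblasts, osteocytes and hypertrophic chondrocytes. Its 1 probe set, 1417256_at, gave 14129 and 21751 in 13del-tg against 15373 and 15109 in the controls, and 12362 on the shared array. The 13del-tg arrays lay on either side of the controls. Means were 17940 ± 5390 in 13del-tg and 15241 ± 187 in the controls (SD, n = 2 each), with a log2 difference of 0.20 (SE 0.23, 95% interval -0.33 to 0.73). Without 13del-tg 3 the difference was -0.11, so its sign rested on that array. Col10a1 is the transgene's own gene, so its 13del-tg signals do not mark hypertrophic chondrocytes. In the wild-type controls this usual marker of hypertrophic chondrocytes was at 149.8 and 158.2. Ihh, a signalling factor of these cells, was dim, at 94.3 and 96.4 in 13del-tg against 56.8 and 68.0 in the controls and 42.9 on the shared array, a log2 difference of 0.51 (SE 0.40, unadjusted p = 0.238 by limma). The 7 markers of other chondrocytes were all negative, with a median difference of -1.39, against 58.6% negative among all probe sets. Their summed signal was 15461 and 6749 in 13del-tg against 30630 and 15288 in the controls. All 7 overlapped between the genotypes, with 0 past limma's threshold and 1 lower at an unadjusted p under 0.05. The part of cartilage cells in the Mmp13 values was not tested.

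Mmp3 encodes stromelysin-1, which cuts proteoglycans and can activate other proteases of the family. It was dim: 1418945_at gave 107.0 and 121.9 in 13del-tg against 65.0 and 79.4 in the controls, close to the signal of 61.9 below which probe sets were left out. The shared array, at 153.7, was above all 4. The groups did not overlap, and the log2 difference was 0.57 (SE 0.39, 95% interval -0.33 to 1.46, unadjusted p = 0.182 by limma). At this level the size depends on the pseudocount, being 0.66 with 1 and 0.39 with 64. Mmp11 encodes stromelysin-3, a protease of stromal cells around epithelia and tumours. It gave 289.6 and 265.1 in 13del-tg, both below 321.9 and 312.8 in the controls, a log2 difference of -0.19 (SE 0.29).

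Timp1 encodes a secreted inhibitor of most matrix metalloproteinases that binds the Mmp9 precursor but inhibits the membrane-anchored Mmp14 enzyme poorly. Probe set 1460227_at had signals of 11275 and 14172 in 13del-tg 2 and 3, against 8939 and 8632 in controls 2 and 3, and 5902 on the shared array. Both 13del-tg arrays lay above both controls, while the shared array lay below all 4. The means were 12724 ± 2049 in 13del-tg and 8785 ± 217 in the controls (SD, n = 2 each). By limma the log2 difference was 0.52 (SE 0.19, 95% interval 0.08 to 0.97, unadjusted p = 0.0256, adjusted p = 0.88), or 1.44-fold. Without 1 array it ran from 0.36 to 0.69. With the shared array counted as 13del-tg, which its Col10a1 signal does not bear out, it was 0.16, and with it as a control 0.72.

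Timp2, whose product both inhibits metalloproteinases and bridges the Mmp2 precursor to the Mmp14 enzyme, was read by 6 probe sets. The brightest, 1454677_at, gave 15639 and 16679 in 13del-tg against 15066 and 16439 in the controls, a log2 difference of 0.04 (SE 0.18, 95% interval -0.37 to 0.44). For 1460287_at the signals were 13645 and 14651 in 13del-tg against 12852 and 15964 in the controls. For 1433662_s_at they were 10750 and 10271 in 13del-tg, both below 10807 and 12368 in the controls, with a log2 difference of -0.14 (SE 0.18). The 3 brightest probe sets of Timp2 therefore gave differences between -0.14 and 0.04.

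The other Timp2 probe sets were wider apart. Probe set 1450040_at gave 7292 and 4419 in 13del-tg against 5005 and 9701 in the controls, and 1420924_at gave 3135 and 1691 against 2718 and 3938, with log2 differences of -0.29 (SE 0.35) and -0.50 (SE 0.32). The difference of 1420924_at was -0.06 without 13del-tg 3, -0.95 without 13del-tg 2, -0.24 without control 3 and -0.77 without control 2. That of 1450040_at was positive, at 0.07 and 0.18, without 13del-tg 3 or control 3, and -0.66 and -0.77 without 13del-tg 2 or control 2. The dim 1437081_at gave 228.1 and 141.6 in 13del-tg against 179.5 and 151.2 in the controls. All 3 overlapped between the genotypes.

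Timp3, whose product stays bound to the matrix and also blocks ADAM proteases, was read by 4 probe sets, all of them overlapping. The brightest, 1419089_at, gave 5695 and 4358 in 13del-tg against 4650 and 6834 in the controls, a log2 difference of -0.18 (SE 0.25). For 1449335_at the values were 5364 and 4023 in 13del-tg against 4506 and 5337 in the controls, and for 1449334_at 1830 and 1250 against 1450 and 1646. The dimmest, 1419088_at, had the widest spread of the family, with 941.6 and 256.9 in 13del-tg against 486.1 and 1098 in the controls. Without 13del-tg 3 all 4 differences of Timp3 were positive, from 0.01 to 0.36.

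**Figure D3:**
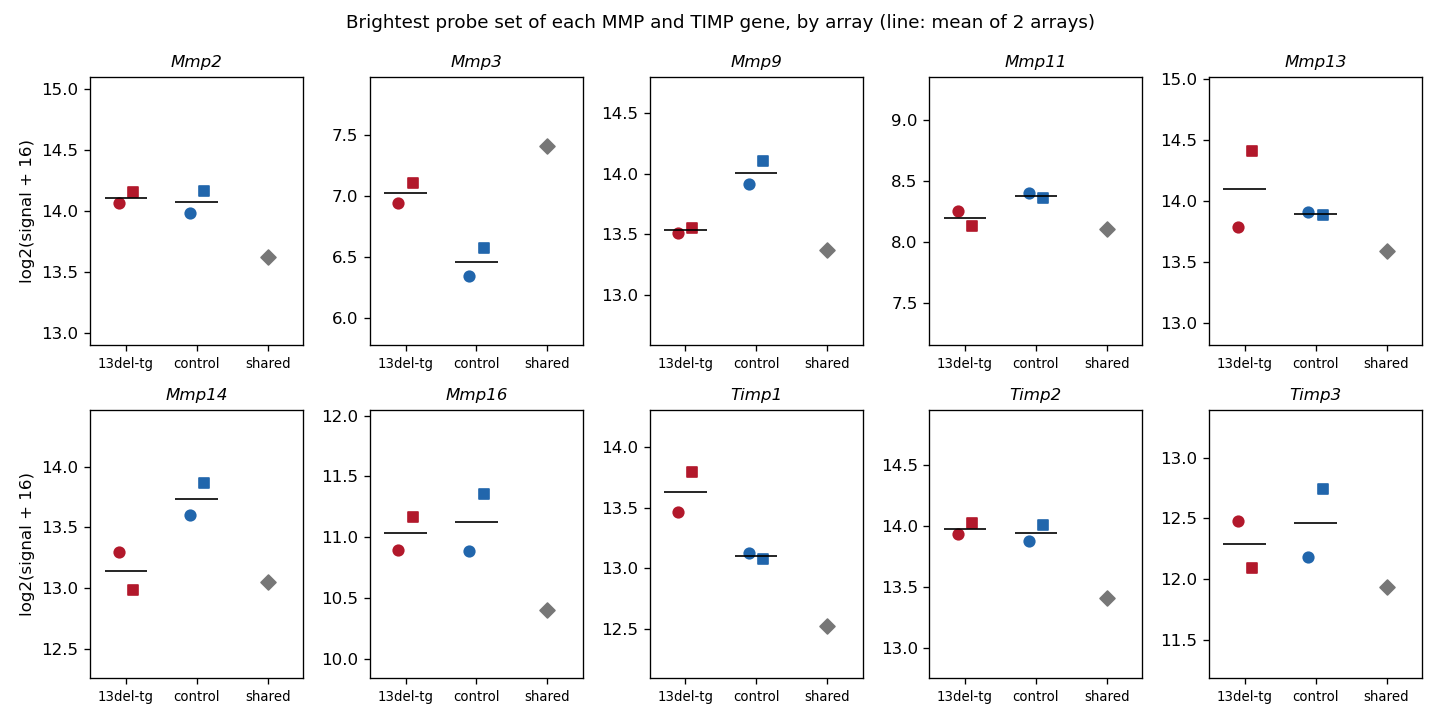
Signal of the brightest probe set of each member gene on every array, in log2(signal + 16), with lines at the mean of the 2 arrays of a genotype and a grey diamond for the shared array. Mmp9, Mmp14 and Mmp11 are lower and Timp1 and Mmp3 higher on both 13del-tg arrays, with a difference of -0.19 for Mmp11. The other 5 genes overlap.

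On 13del-tg 3, 4 probe sets lay far below the brightest one of their gene relative to the controls, a set picked after the values were seen. There 1416572_at of Mmp14 was 1617, 1420924_at of Timp2 was 1691, 1419088_at of Timp3 was 256.9 and 1443412_s_at of Mmp16 was 29.1, each the lowest of the 5 arrays. Another Timp2 probe set, 1450040_at, also lay far below the brightest one there, at 4419, but was lower still on the shared array, at 4087.5. Relative to the control mean, the brightest probe set of each of these genes was displaced less on 13del-tg 3. The ratio of 3' to 5' control probe sets for actin, a measure of RNA length, was 1.11 and 1.40 in 13del-tg against 1.29 and 1.31 in the controls, and for Gapdh 0.757 and 0.783 against 0.866 and 0.737. The part of RNA length in these probe sets was not tested.

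**Figure D4:**
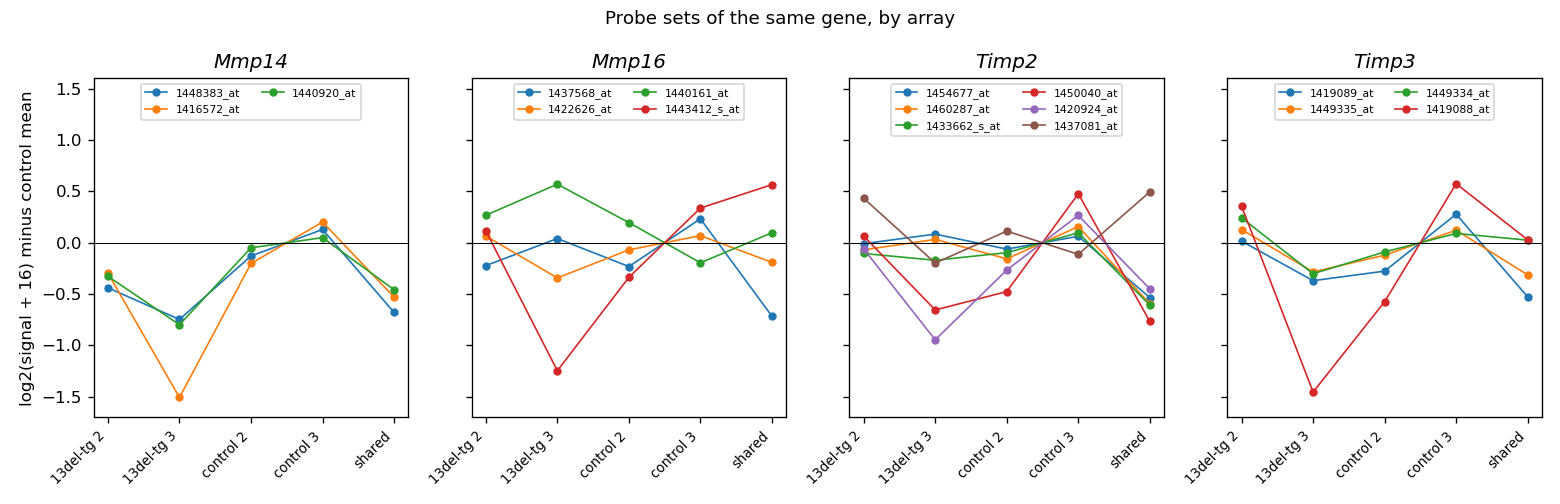
Probe sets of Mmp14, Mmp16, Timp2 and Timp3 on each array, as log2(signal + 16) minus the mean of controls 2 and 3. The 3 probe sets of Mmp14 are below 0 on both 13del-tg arrays, while those of the other genes spread to either side, with the lowest points, of Timp3 1419088_at and Mmp14 1416572_at, on 13del-tg 3.

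The shared array was lowest of the 5 for 14 of the 25 probe sets, and for 12 of the 13 with a mean signal of at least 4000. Among all 1789 probe sets of that brightness it was lowest for 57.6%, with a median of -0.31 against 13del-tg and -0.22 against the controls on the log2 scale. Among the bright members, the brightest probe sets of 5 genes lay further below both genotypes there than these medians. They were those of Mmp2 at 12593, Mmp13 at 12362, Timp1 at 5902, Timp2 at 10863 and Timp3 at 3905.5. The brightest probe sets of Mmp9 and Mmp14 lay closer to 13del-tg than the median did, but further below the controls. The part of the general level of bright probe sets in these values was not tested.

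Stretches upstream of the transcription start are shown for Mmp14, Mmp3 and Timp1, the 3 genes whose brightest probe sets had the largest differences, and for Mmp13, which has an AP-1 motif as Mmp3 does. RefSeq promoter windows (GRCm38.p6) were matched by symbol for 7 of the 10 genes, and 250 bases before each start were searched for the AP-1 motif TGANTCA, the RUNX motif TGTGGT and the SP1 motif GGGCGG on both strands, and for TATAAA on the gene's strand. Capitals mark these motifs in the 120 bases before the start, written 5′ to 3′ on the gene's strand.
Mmp3, chr9:7445702-7445821, plus strand: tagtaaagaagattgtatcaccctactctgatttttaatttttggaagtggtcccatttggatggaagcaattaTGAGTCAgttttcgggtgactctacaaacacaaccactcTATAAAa
Mmp13, chr9:7272394-7272513, plus strand: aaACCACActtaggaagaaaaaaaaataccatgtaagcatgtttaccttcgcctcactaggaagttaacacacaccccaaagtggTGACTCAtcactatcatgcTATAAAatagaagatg
Mmp14, chr14:54431478-54431597, plus strand: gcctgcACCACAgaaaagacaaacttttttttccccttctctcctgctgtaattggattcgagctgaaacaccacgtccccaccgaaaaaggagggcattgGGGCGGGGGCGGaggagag
Timp1, chrX:20870046-20870165, plus strand: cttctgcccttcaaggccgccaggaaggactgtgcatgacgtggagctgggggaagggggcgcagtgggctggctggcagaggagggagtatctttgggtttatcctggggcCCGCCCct
The windows of Mmp3 and Mmp13 each hold an AP-1 motif, at -46 to -40 and -35 to -29 from the start, and TATAAA downstream of it. AP-1 motifs were in 6.75% of all 32851 windows, TATAAA in 7.59% and both in 0.791%. Mmp13 and Mmp14 each hold 1 RUNX motif, present in 14% of windows. The SP1 motif, found in 32.7% of windows, was present for Mmp11, Mmp14, Timp1, Timp2 and Timp3. A match is a run of letters and not a shown binding site.

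The rest of the protease system was described from lists chosen by name, each gene standing by its brightest kept probe set. For reading the counts below, 58.6% of all probe sets tested were negative, while an unadjusted p under 0.05 was reached by 1.42% with a higher and 3.72% with a lower signal in 13del-tg. With 1 probe set for each of 12859 genes, 191 genes reached that p with a higher signal and 683 with a lower one. Of 17 other metalloproteinase and TIMP genes, 12 had a probe set with that symbol alone, and 6 of these were kept. Of the 6, 0 passed limma's test in either direction, 0 had an unadjusted p under 0.05, and 5 differences were negative (median -0.21). Mmp8, the collagenase of neutrophil granules, gave 277.7 and 510.1 in 13del-tg, below 650.9 and 591.6 in the controls, a log2 difference of -0.70 (SE 0.33, unadjusted p = 0.0682 by limma). The membrane-linked Mmp17 had a log2 difference of -0.23 (SE 0.34), Mmp23 0.16 (SE 0.24) and Timp4 -0.30 (SE 0.53).

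Among 12 measured genes for activation and cell-surface control of proteolysis, 0 passed limma's test, 1 had an unadjusted p under 0.05, 7 were positive and 5 negative (median 0.09). Mrc2, the endocytic receptor that takes up cut collagen, gave 2445 and 2320 in 13del-tg, below 2924 and 4185 in the controls, a log2 difference of -0.55 (SE 0.23, unadjusted p = 0.0421 by limma). Itgb3, an integrin chain of osteoclasts that is also on the osteoclast list, had -0.50 (SE 0.27), but its other kept probe set pointed the opposite way. The matrix receptor gene Cd44 had 0.25 (SE 0.19), with 2 of its 3 kept probe sets of that sign. The plasminogen activator gene Plat had 0.28 (SE 0.22).

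Of 15 ADAM and ADAMTS genes, 0 passed limma's test, 2 had an unadjusted p under 0.05, both lower, 9 were positive and 6 negative (median 0.04). Adamts12, a secreted metalloprotease, gave 1959 and 1827 in 13del-tg, below 3035 and 2600 in the controls, a log2 difference of -0.57 (SE 0.20, unadjusted p = 0.0229 by limma). Adamts10, linked to fibrillin fibres, had -0.69 (SE 0.29), again with its other probe set pointing the opposite way. Adamts1, an aggrecan- and versican-cutting enzyme, gave 760.9 and 800.2 in 13del-tg, above 563.4 and 488.7 in the controls, a log2 difference of 0.56 (SE 0.24). Adam8 had -0.59 (SE 0.37).

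The 7 cathepsin genes, which encode lysosomal proteases, had 3 positive and 4 negative differences with 0 past limma's threshold and 0 at an unadjusted p under 0.05 (median -0.0024). Ctsd gave 4789 and 3968 in 13del-tg, below 5459 and 5604 in the controls, with a log2 difference of -0.34 (SE 0.19). Ctsl gave 11939 and 17455 in 13del-tg, above 10931 and 11080 in the controls, with 0.39 (SE 0.22). Ctsh and Ctsz overlapped, at 0.10 (SE 0.23) and 0.06 (SE 0.24), and only 1 of the 3 kept probe sets of Ctsz was positive.

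As a last description, genes were ranked by how closely their profile over the 5 arrays followed that of 3 members, by root mean square distance on the log2 scale. Nearest to Mmp9 among 9056 genes were Pip4k2c (0.0194), H2bc21 and Fgd6. Nearest to Mmp13 among 9108 genes were Dnajb6 (0.0234), Hint1 and Cttn, all highest on 13del-tg 3. Nearest to Mmp14 among 7518 genes were Pip5k1c (0.0451), Gpr160 and Ruvbl2. No test was made on these distances.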

How the data were processed

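The deposited intensities are linear, with 1 value for each probe set on an array. Per the submitters' processing notes they came from MAS5 of a version that the sources do not state. Each array's trimmed mean, without 2% at each end, was 500.003. No further normalization was applied. Values were used as log2(signal + 16), which understates changes of dim genes. The 64 control probe sets were left out, and 27022 probe sets whose mean log2 value over the 5 arrays reached the 40th percentile, 6.28 or a signal of 61.9, were kept. Symbols came from the platform annotation; 34945 probe sets had 1 symbol, 932 several and 9160 were unnamed here. Differences were tested per probe set with limma 3.58.1 under R 4.3.3 (eBayes with an intensity trend), two-sided, at a Benjamini-Hochberg threshold of 0.05, on 2 residual and 6.01 prior degrees of freedom. The code was tested on simulated data with 2 arrays against 2. It recovered 2.35% of changes of log2 1, 49.4% of log2 2 and 94.8% of log2 4, and 5.47% of its calls were false. The member differences ran from -0.90 to 0.57, so 0 of 25 past the threshold says little about changes of that size. Detection calls and scan dates were not used here. The number of arrays limits the precision.

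The members and lists were chosen with earlier results of these data known. Named were all members and, per related list, the 4 genes with the smallest unadjusted p; Col10a1, Ihh, Ctsk and Col1a1 served as checks; Acp5 and Atp6v0d2 were added after their values were seen. Profiles of Mmp9, Mmp13 and Mmp14 were matched by distance. The 16 alternatives covered pseudocount, filter, scaling, variance model, replicate number, choice of probe set, left-out arrays and the shared array.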

Additional observations from a re-analysis of the deposited data

Results flagged for a closer look

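On the shared array, which enters no comparison, 3 dim members had signals above both controls and both 13del-tg arrays. Mmp3 1418945_at was at 153.7 there, against at most 121.9 in 13del-tg and 79.4 in the controls. Mmp16 1443412_s_at was at 142.3, against at most 99.9 in 13del-tg and 119.2 in the controls. Timp2 1437081_at was at 238.7, against at most 228.1 in 13del-tg and 179.5 in the controls.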

How the results depend on the processing

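Over every alternative that gave them a value, 15 or 16 of the 16 for each, the 3 probe sets of Mmp14, both of Mmp9, and those of Mmp11, Mmp3, Timp1, Mmp16 1440161_at and Timp2 1420924_at kept the sign of their difference. No member passed the threshold in any of them except Mmp14 1416572_at (adjusted p = 0.00306 by limma) with the replicate block. The labels give the numbers no meaning beyond the replicate, so the block was not used for pairing, although same-numbered arrays deviated together (correlation 0.22 over 27022 probe sets, across probe sets of 2 pairs). That block called 330 probe sets higher and 338 lower, against 2 and 8 without it. Counts of higher and lower calls were 1 and 1 with a pseudocount of 1, with the 60th percentile filter and with quantile normalization, and 1 and 0 without a filter, without the trend and when the shared array was a control. They were 2 and 5 with a pseudocount of 64, 0 and 8 when it was a 13del-tg array, and 0 and 0 with it under both labels, where an unadjusted p under 0.05 was reached by 31 higher and 263 lower probe sets. Leaving out 1 array moved the higher calls between 1 and 199 and the lower calls between 5 and 43, the most without control 2. Such a fit leaves a lone array, assumed to vary like the others. Without 1 array the negative members ranged from 11 (without control 3) to 20 and their median from -0.28 (without 13del-tg 2) to 0.03 (without control 3). The cause was not tested.

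Small differences changed sign. Quantile normalization gave Mmp2 1416136_at -0.14, Mmp13 -0.0028 and Timp2 1454677_at -0.12. Centring on medians gave Mmp2 1439364_a_at 0.017, Mmp16 1437568_at 0.027, Timp2 1460287_at 0.099, Timp3 1449334_at 0.088 and Timp3 1449335_at 0.040. Counting the shared array as 13del-tg alone, Mmp2 1416136_at had -0.13 and Timp2 1454677_at -0.15. With it as control only, Mmp2 1439364_a_at had 0.14, Mmp16 1437568_at 0.15, Timp2 1433662_s_at 0.065, Timp2 1437081_at -0.047, Timp2 1460287_at 0.18 and Timp3 1449335_at 0.027. Leaving out 1 array gave ranges of -0.11 to 0.51 for Mmp13, -0.051 to 0.12 for Mmp2 1416136_at, -0.34 to 0.065 for Mmp16 1422626_at, -0.32 to 0.14 for Mmp16 1437568_at and -1.25 to 0.12 for Mmp16 1443412_s_at. For Timp2 they were -0.20 to 0.43 (1437081_at), -0.77 to 0.18 (1450040_at), -0.026 to 0.10 (1454677_at) and -0.17 to 0.14 (1460287_at). For Timp3 they were -1.45 to 0.36 (1419088_at), -0.45 to 0.10 (1419089_at), -0.30 to 0.24 (1449334_at) and -0.28 to 0.13 (1449335_at). The 60th percentile filter left 22 of the 25 members, 17 of them negative (median -0.14). With 1 probe set per gene, 5 of 10 were negative (median -0.03).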
